A study of Mus musculus with 10 samples.

Results

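Primary, or azurophil, granules are the first granules that a neutrophil makes, and 8 genes named for them were read from the deposited table by their symbols, Mpo, Elane, Prtn3, Ctsg, Ms4a3, Fcnb, Serpinb1a and Gstm1. All 8 had a row among the 12791 genes of the table. RNA came from bone marrow progenitor cells of C57BL/6 mice sorted as negative for lineage markers and Sca-1 but positive for c-Kit, and was measured by bulk sequencing in 10 libraries. Of these, 3 were KDR-positive and 4 were KDR-negative libraries from mice with tumors of GL261, a mouse glioma line, at week 4, and 3 were naive libraries from mice without a tumor. The tumors grew in mice with GFP knocked into the gene of KDR, a VEGF receptor, and the design text describes a sort of GFP-positive cells with RNA of about 20000 of them, without saying how the KDR-negative cells were taken. The age of the mice, whether the naive mice carried the reporter and whether libraries of a group came from separate animals are not stated, so the authors' p-values may measure technical spread.

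The authors' deposited table holds 2 comparisons between groups, with the mean level as log2 CPM, a unit of counts scaled by library size, and the difference as a log2 fold change, but no value for a single library. Its header does not say which groups were compared, and the comparisons are called the first and the second here. A positive fold change means a higher level in the numerator group of that comparison, and both comparisons have the same denominator group as judged by its level (median absolute difference of 0.00203 log2 over 9044 genes). Levels of single groups were worked out from these means and fold changes, so they carry no standard deviation, and the depth of the libraries is unknown. Calls of higher or lower use the authors' adjusted p over all genes, with a threshold of 0.05. Kit, the c-Kit gene of the sort, had 38.8 CPM in the first numerator group, 60.3 CPM in the second numerator group and 58.6 CPM in the denominator group.

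Neutrophil precursors at the promyelocyte stage transcribe the azurophil granule genes at very high levels and then switch them off, before the genes of later granules come on. The granules carry myeloperoxidase, which makes hypochlorous acid from hydrogen peroxide and chloride, and the serine proteases elastase, proteinase 3 and cathepsin G, which digest microbes and matrix. Granulocyte-monocyte progenitors, which lie within the sorted gate, already transcribe these genes. The name of the group suits Mpo, Elane, Prtn3 and Ctsg, whose products are stored in azurophil granules. Ms4a3 encodes a membrane protein that marks granulocyte-monocyte progenitors in the mouse, Fcnb a secreted lectin, Serpinb1a a cytosolic inhibitor of the granule proteases and Gstm1 a cytosolic glutathione transferase.

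Mpo and the 3 protease genes were the members with the largest fold changes of the first comparison, 4.07 to 5.29 times higher in the first numerator group. Fcnb, at the other end, was not called. In all, 7 of 8 members were higher in the first numerator group, against 18.8% of all genes, and none was lower, against 3.49% of all genes. Over both directions 22.3% of all genes were called and 30.8% had an unadjusted p under 0.05. The median log2 fold change was 1.75 over the 8 members and -0.13 over all genes. In the second comparison the authors' deposited table calls none of the 8, and 0.109% of all genes, made up of 0.0704% higher and 0.0391% lower. No member had an unadjusted p under 0.05 there, against 0.336% of all genes. Directions in the first comparison are those of the deposited scale, on which the derived levels of all genes sum to 2127130 CPM in the first numerator group and 756537 CPM in the denominator group. The first sum is 2.13 times what the CPM of a single library can add up to. Equal sums would lower every fold change of the first comparison by 1.49 (log2), the median of all genes included, and of the 8 members would leave Mpo, Elane, Prtn3 and Ctsg above 0.

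Mpo, the myeloperoxidase gene, had a derived level of 662 CPM in the first numerator group and 134 CPM in the second numerator group, against 125 CPM in the denominator group. Its log2 fold change in the first comparison of the authors' deposited table was 2.40 (adjusted p = 1.3e-14), a 5.29-fold higher level. At equal sums it would be 0.91. Mpo has 10.6% of its 50-base words in transcripts of other genes, among them the overlapping gene Gm11505 of the GENCODE annotation, so a part of its reads may have been assigned elsewhere.

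Elane, the neutrophil elastase gene, stood at 744 CPM in the first numerator group and 145 CPM in the second numerator group, against 144 CPM in the denominator group. The authors' deposited table gives it a log2 fold change of 2.37 in the first comparison (adjusted p = 8.3e-15). Prtn3, the proteinase 3 gene next to Elane on chromosome 10, stood at 700 CPM in the first numerator group and 141 CPM in the second numerator group, against 139 CPM in the denominator group. Its log2 fold change there was 2.34 (adjusted p = 1.2e-14), also in the authors' deposited table. Ctsg, the cathepsin G gene on chromosome 14, stood at 482 CPM in the first numerator group and 121 CPM in the second numerator group, against 118 CPM in the denominator group. The authors' deposited table gives a log2 fold change of 2.03 for Ctsg (adjusted p = 3.6e-11). In these 3 protease genes the first numerator group lay far above both other groups, which lay within a few CPM of each other. At equal sums the first-comparison values would be 0.88 for Elane, 0.84 for Prtn3 and 0.54 for Ctsg. None of the 3 shares a 50-base word with another annotated gene.

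**Figure D1:**
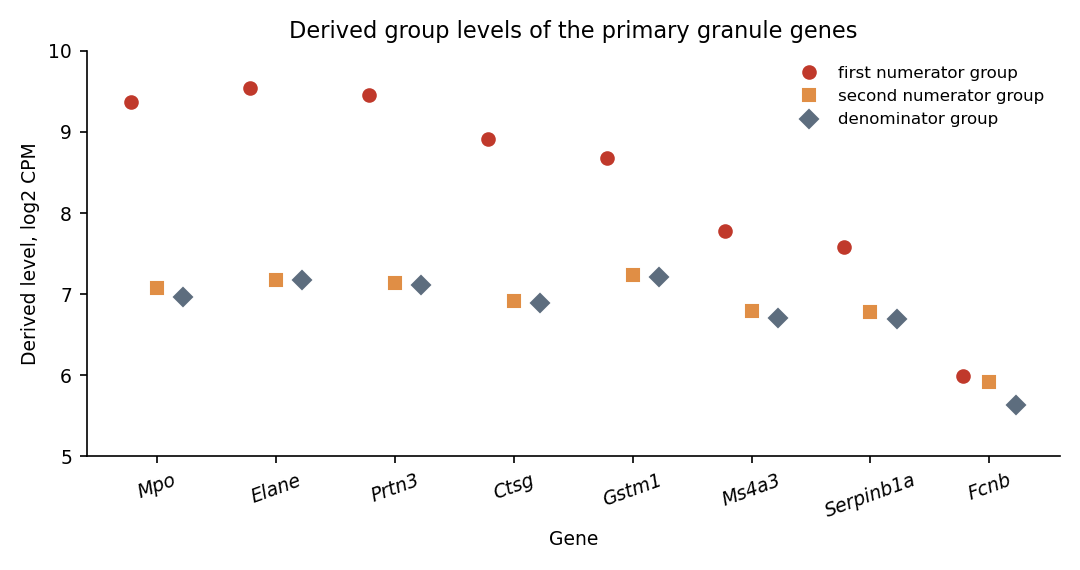
Derived level (log2 CPM, vertical axis) of each of the 8 genes in the first numerator group (circles), the second numerator group (squares) and the denominator group (diamonds), with no error because the table holds no value per library. Mpo, Elane, Prtn3 and Ctsg show the widest gaps, from 2.03 to 2.40 log2, and in Fcnb all 3 groups lie close together.

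Because Mpo and the 3 protease genes differed by similar amounts, the 250 bases before their RefSeq start sites (build GRCm38.p6, read on the strand of the gene) are given here, with those of Fcnb as the member that was not called. The submitters' notes name build mm8, so these positions are not those of the authors' processing. Capitals mark AGGAAGT, a form of the site bound by PU.1 and other ETS factors, AACGG and AACTG, forms of the MYB site, and GCAAT, one arm of the site of C/EBP factors, on either strand. None of these motifs overlaps another in the windows printed. The windows are chr11:87793534-87793783 for Mpo, chr10:79886062-79886311 for Elane and chr10:79879417-79879666 for Prtn3, all on the plus strand, and chr14:56102575-56102824 for Ctsg and chr2:28084879-28085128 for Fcnb, both on the minus strand.
Mpo: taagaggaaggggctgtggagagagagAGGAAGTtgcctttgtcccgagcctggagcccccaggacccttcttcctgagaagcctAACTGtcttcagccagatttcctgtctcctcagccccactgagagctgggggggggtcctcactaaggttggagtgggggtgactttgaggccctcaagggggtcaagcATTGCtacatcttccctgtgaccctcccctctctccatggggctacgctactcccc
Elane: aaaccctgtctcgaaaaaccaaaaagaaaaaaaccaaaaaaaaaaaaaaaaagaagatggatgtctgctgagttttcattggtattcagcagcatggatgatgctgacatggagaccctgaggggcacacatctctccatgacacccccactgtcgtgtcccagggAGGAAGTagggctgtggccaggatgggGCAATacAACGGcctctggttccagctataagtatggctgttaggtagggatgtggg
Prtn3: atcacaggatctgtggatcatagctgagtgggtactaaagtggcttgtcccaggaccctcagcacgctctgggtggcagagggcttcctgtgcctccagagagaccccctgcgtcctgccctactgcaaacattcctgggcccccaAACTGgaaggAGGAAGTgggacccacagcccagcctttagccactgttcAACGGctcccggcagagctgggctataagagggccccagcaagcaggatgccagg
Ctsg: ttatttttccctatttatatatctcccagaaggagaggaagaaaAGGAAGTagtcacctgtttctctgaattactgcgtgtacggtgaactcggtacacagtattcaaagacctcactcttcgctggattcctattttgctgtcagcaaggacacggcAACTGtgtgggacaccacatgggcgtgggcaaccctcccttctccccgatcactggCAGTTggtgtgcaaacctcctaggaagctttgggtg
Fcnb: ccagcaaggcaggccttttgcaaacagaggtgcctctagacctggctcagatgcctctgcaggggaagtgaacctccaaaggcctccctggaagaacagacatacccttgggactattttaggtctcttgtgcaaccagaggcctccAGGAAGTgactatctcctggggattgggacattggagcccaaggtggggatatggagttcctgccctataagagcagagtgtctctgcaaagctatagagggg
AGGAAGT occurs in the windows of 5 of the 7 members that have an entry, these 5 genes, and in 7.69% of 32851 windows of the same length. It lies on the strand of the gene in all 5, its first base 84 bases before the start of Elane, 94 before Prtn3 and 103 before Fcnb, and farther out in Ctsg (206) and Mpo (223). AACGG occurs in Elane and Prtn3, with its first base 50 and 55 bases before the start, and in 14.5% of all windows. AACTG occurs in Ctsg, Mpo and Prtn3 and in 39.1% of all windows. GCAAT occurs in Elane and Mpo and in 23.1% of all windows. Fcnb carries AGGAAGT although it was not called, while Ms4a3 and both windows of Gstm1 carry none of the 4 motifs. The motifs were chosen after the sequences had been seen, and a match describes letters only.

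Gstm1, which joins glutathione to reactive compounds, had 411 CPM in the first numerator group and 151 CPM in the second numerator group, against 148 CPM in the denominator group. Its log2 fold change in the first comparison of the authors' deposited table was 1.47 (adjusted p = 2.9e-06), but -0.02 at equal sums. Of its 50-base words 19.9% also occur in other genes, Gstm3 and the pseudogene Gstm2-ps1 among them, so its count is uncertain. Ms4a3 had 220 CPM in the first numerator group and 111 CPM in the second numerator group, against 105 CPM in the denominator group. Its log2 fold change was 1.07 (adjusted p = 0.00098) in the authors' deposited table, but -0.42 at equal sums. Serpinb1a, whose product blocks elastase, proteinase 3 and cathepsin G, had 191 CPM in the first numerator group and 110 CPM in the second numerator group, against 103 CPM in the denominator group. The authors' deposited table gives it 0.89 (adjusted p = 0.011), and it would stand at -0.61 at equal sums. For these 3 genes the sign therefore rests on the scaling.

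Fcnb, the gene of ficolin-B, a lectin that binds acetylated sugars on microbes, had the lowest fold change. Its levels were 63.8 CPM in the first numerator group and 60.4 CPM in the second numerator group, against 49.5 CPM in the denominator group. In the authors' deposited table its log2 fold change was 0.37 in the first comparison (adjusted p = 0.519), so no difference was detectable, and its value at equal sums would be -1.13.

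Summed over the 8 genes, the derived levels came to 3473 CPM in the first numerator group and 972 CPM in the second numerator group, against 932 CPM in the denominator group. As a share of all derived levels of a group this is 0.163% in the first numerator group and 0.134% in the second numerator group, against 0.123% in the denominator group. The shares lie much closer together than the sums. Since RNA was pooled from many cells, more cells that transcribe these genes and more transcript per cell cannot be told apart.

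Fold changes of the first comparison rose with the level of the gene, so each member was set beside the other genes whose level in the denominator group lay within 0.5 log2 of its own. The median log2 fold change was -0.54 for genes whose denominator level lay between 3 and 4 log2 CPM, 1.01 for those between 6 and 7 and 1.86 for those between 7 and 8. Among 407 genes of the level of Mpo, 90.7% were called higher, and among 253 of the level of Gstm1, 90.1%. Genes of the level of Fcnb numbered 2771, and 18.5% of them were called higher. The 7 calls are therefore what most genes of their level show, and the size of the fold change was compared instead.

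On this comparison the members divided. Mpo had a larger fold change than 94.6% of its like-level genes, and stood 0.85 log2 above their median of 1.55. Prtn3 exceeded 92.7% of 303 like-level genes, Elane 92.2% of 269 and Ctsg 87.3% of 463. Ms4a3 exceeded 36.4% of 675 genes, Gstm1 26.9% of 253 and Serpinb1a 26.5% of 699, so these 3 lay below the median of genes of their level. Fcnb exceeded 63.0% of its like-level genes. These shares do not depend on a scaling that shifts all fold changes alike. They are a description, with no test. With genes matched on the mean level of the comparison instead, the shares were 82.2% for Mpo, 80.1% for Prtn3, 79.6% for Elane and 67.2% for Ctsg, and 13.4% to 19.6% for the 3 lower genes. When the genes also had to lie within 1.5 times of the member's transcript length, Mpo exceeded 97.3%, Prtn3 91.2%, Elane 89.6% and Ctsg 84.2% of them. In a window of 1 log2 the 3 lower genes lay above the median, at 54.7% to 62.0%. In a window of 0.25 log2 they lay at 12.1% to 23.9%, and Mpo, Elane, Prtn3 and Ctsg at 86.2% to 92.0%.

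**Figure D2:**
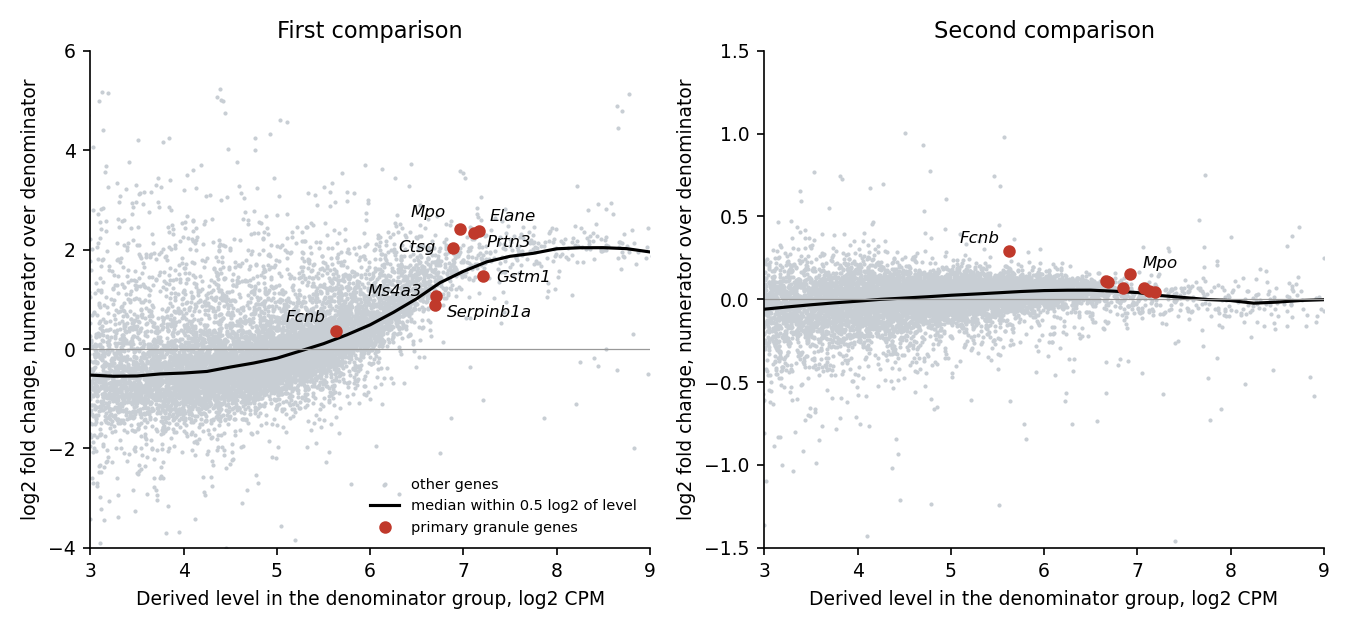
Log2 fold change (vertical axis) against the derived level in the denominator group (log2 CPM, horizontal axis) in the first comparison (left) and the second (right, finer vertical scale), with the 8 genes in red, other genes in grey and the median of genes within 0.5 log2 of a level as a line. In the first comparison Mpo, Elane, Prtn3 and Ctsg lie above the line and Gstm1, Ms4a3 and Serpinb1a below it, all on the deposited scale, and genes beyond the axes are not drawn.

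**Figure D3:**
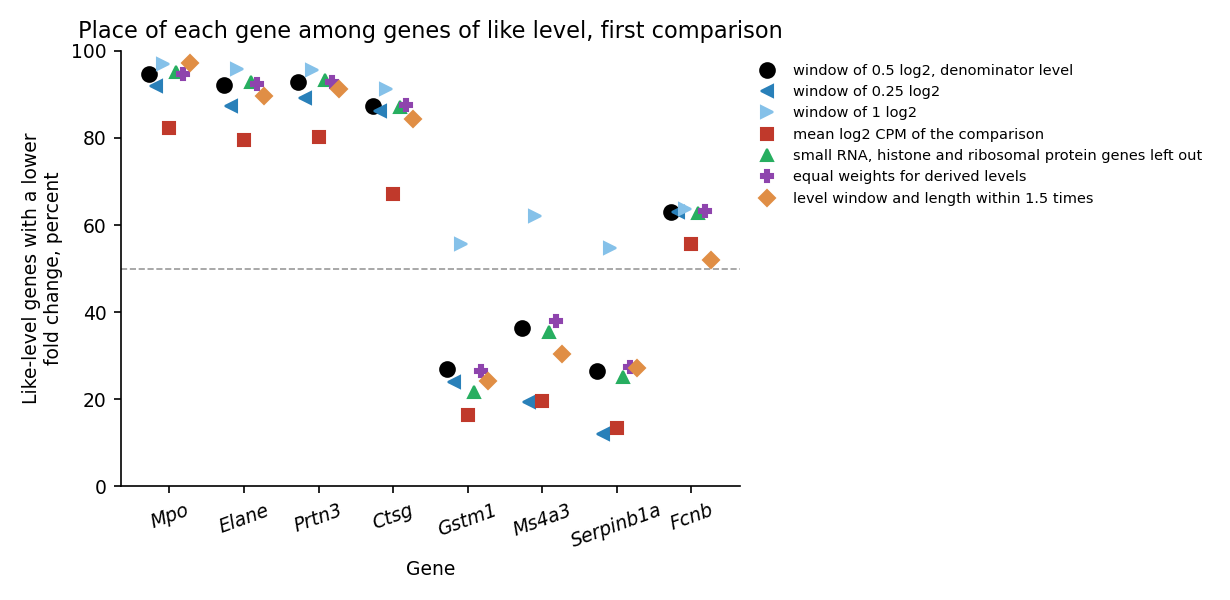
Percent of genes of like level with a smaller fold change than the named gene (vertical axis) in the first comparison, for 7 ways of choosing the genes of like level (symbols), with the dashed line at 50 percent. Mpo, Elane, Prtn3 and Ctsg stay above the line in all 7, and Gstm1, Ms4a3 and Serpinb1a lie below it except with the window of 1 log2.

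The 10 genes nearest in mean level to the median of Mpo, Elane, Prtn3 and Ctsg (8.63 log2 CPM) serve as a further scale. Of these, 9 were higher in the first numerator group in the authors' deposited table, among them Pfn1, a regulator of actin, at 2.57, Serf2 at 2.44, the glycolytic enzyme gene Gapdh at 2.07, the respiratory chain gene Ndufa12 at 1.97 and Nudc at 1.86. Lyz1, a lysozyme gene, at 4.60 and Fcna at 5.24 in the authors' deposited table lay above every granule protease. The gene that was lower, Snord35a, makes a small nucleolar RNA. Genes whose pattern lay closest to the median of the 8 members, by Euclidean distance over both fold changes and the first mean level, included G3bp1 (distance 0.07), Hint1 (0.09), Psma4 (0.10), Pcbp1 (0.11), Ptbp1 and Ppib (both 0.12) and Atpif1, Nop10 and Hnrnpc (all 0.13), where likeness rests on 3 values per gene.

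In the second comparison all 8 members had a small positive log2 fold change, from 0.04 for Gstm1 to 0.29 for Fcnb in the authors' deposited table, with unadjusted p-values from 0.358 to 0.894. Mpo stood at 0.15, Serpinb1a at 0.11, Ms4a3 at 0.10, Prtn3 and Ctsg at 0.07 and Elane at 0.05 in the authors' deposited table, each with an adjusted p of 1. Fcnb exceeded 99.5% of 2795 genes of like level and Mpo 96.9% of 426, whose medians were both 0.04. The lowest share was 59.3% for Gstm1. For every member the median of like-level genes was positive too, from 0.02 for Elane and Gstm1 to 0.05 for Serpinb1a. A positive sign is therefore what most genes of these levels show. Both comparisons use the same denominator group, so the 2 sets of values are not independent of each other.

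Relatives of Mpo, Elane, Prtn3 and Ctsg, several of them neighbours on the chromosome, were mostly not called. The same holds for the whole table, where 22.3% of all genes were called. Among genes with a denominator level between 5 and 6 log2 CPM, 15.9% were called higher, and these relatives were not matched on level. Epx, the eosinophil peroxidase gene, and Lpo, the lactoperoxidase gene, lie within 3 protein-coding genes of Mpo on chromosome 11. In the authors' deposited table their log2 fold changes in the first comparison were -0.39 (adjusted p = 0.595) and -1.73 (adjusted p = 0.442), and Lpo was low, with a mean of 0.91 log2 CPM. Beside Prtn3 and Elane on chromosome 10, Prss57, a related protease gene, differed by -0.58 log2 (adjusted p = 0.136) in the authors' deposited table. Its derived levels were 29.7 CPM in the first numerator group and 44.4 CPM in the denominator group, opposite in direction to Elane and Prtn3. Prss57 is also counted below among other contents of azurophil granules. Cfd, the gene of complement factor D, lies there too and differed by 0.55 log2 (adjusted p = 1) in the authors' deposited table; its mean was 0.17 log2 CPM. Beside Ctsg, the basophil protease gene Mcpt8 stood at -0.70 (adjusted p = 0.131) in the authors' deposited table. Of 8 measured genes listed as granule proteases of mast cells, basophils and lymphocytes, none was higher, against 18.8% of all genes. At equal sums 1 of them lay above 0. That list also holds Prss57, although it is counted among azurophil granule contents too. Lower were 2 of the 8, Cpa3, a mast cell carboxypeptidase, at -1.68 (adjusted p = 4.7e-06) and Gzmb, granzyme B, at -3.90 (adjusted p = 0.0059) in the authors' deposited table. Around all 8 members, 44 other measured genes lay within 6 protein-coding genes on either side, of which 7 were higher and 3 lower. Over all genes 18.8% were higher and 3.49% lower, so these counts are near the background. The median was -0.26 for the 44 genes and -0.13 for all genes.

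The families of the other members split. Of 7 measured MS4A genes besides Ms4a3, 2 were higher and 2 lower in the first comparison, against 18.8% and 3.49% of all genes. The median of the 7 was -0.37, with 2 above 0 at equal sums. In the authors' deposited table Ms4a7 at 6.01 and Ms4a6d at 3.42 were higher, while Ms4a2, the beta chain of the high-affinity IgE receptor of mast cells and basophils and the neighbour of Ms4a3, was lower at -2.39 (adjusted p = 0.00014), as was Ms4a4b at -2.04. Fcna, the gene of ficolin-A, which macrophages make in the mouse, was far from Fcnb, with a first-comparison log2 fold change of 5.24 (adjusted p = 6.7e-28) and a second-comparison one of -2.51 (adjusted p = 0.037) in the authors' deposited table. Its derived levels were 793 CPM in the first numerator group and 3.61 CPM in the second numerator group, against 21.0 CPM in the denominator group. It belonged to a list of 4 measured complement genes, not all of them of the lectin pathway, of which 3 were higher. All 3 also lay above 0 at equal sums, the others being Cfp, properdin, at 2.98 and C4b at 5.28 in the authors' deposited table.

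**Figure D4:**
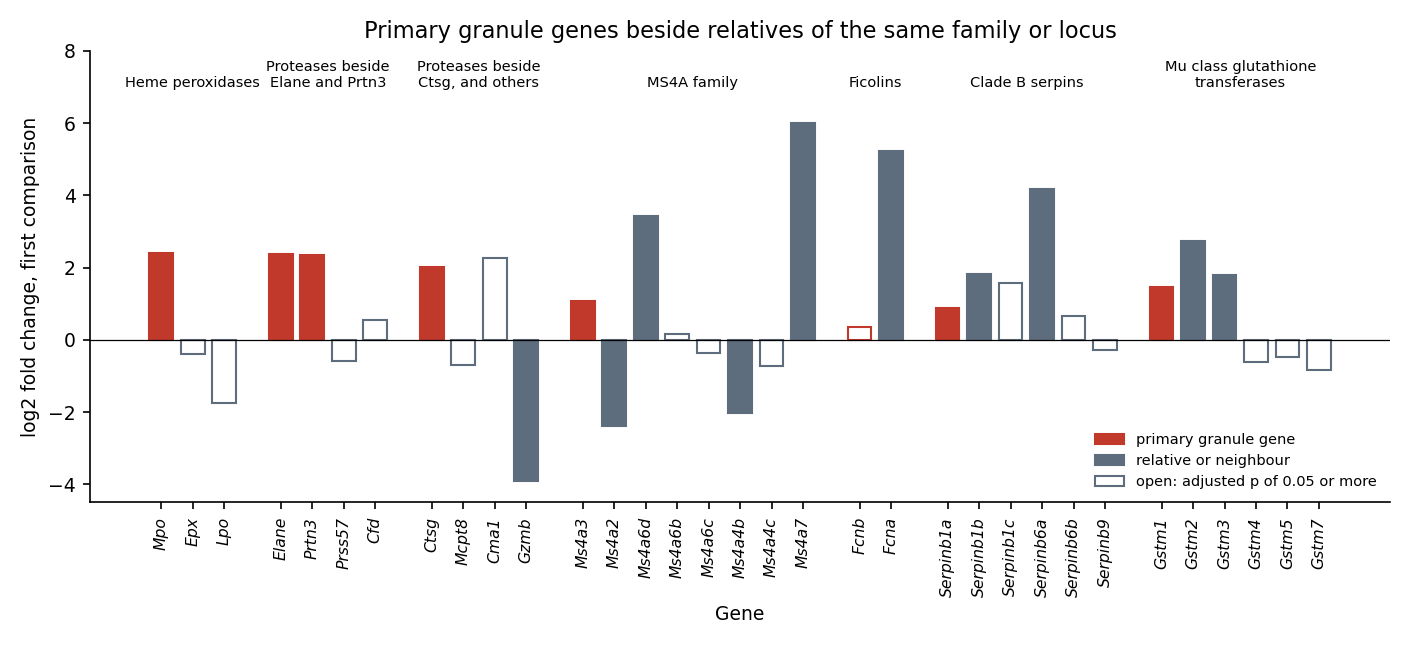
Log2 fold change in the first comparison (vertical axis, deposited scale) of the 8 genes (red) and of relatives or neighbours (grey), with open bars for genes at an adjusted p of 0.05 or more. Epx and Lpo beside Mpo, and Prss57 and Cfd beside Elane and Prtn3, have open bars, Fcna stands at 5.24 where Fcnb stands at 0.37, and at equal sums all bars would be lower by 1.49.

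Serpins, cystatins and other listed inhibitors were higher for 7 of 14 measured genes and lower for 1. Their median was 1.37, and 7 lay above 0 at equal sums. The lower gene was Serpinf1, at -1.89 (adjusted p = 1.4e-06) in the authors' deposited table. Serpinb10-ps, a pseudogene by its symbol, was among the higher ones, at 1.91 in the authors' deposited table. Serpinb6a at 4.17, Serpina3g at 2.97, Serpina3f at 3.44 and Cst3, the cystatin C gene, at 2.45 had the smallest p-values in the authors' deposited table. The near copies of Serpinb1a had low means, of 2.99 log2 CPM for Serpinb1b and 3.11 for Serpinb1c, with log2 fold changes of 1.83 for Serpinb1b (adjusted p = 0.021) and 1.58 for Serpinb1c (adjusted p = 0.055) in the authors' deposited table. Serpinb1a shares 3.12% of its 50-base words with other genes, these copies among them. Glutathione enzymes were higher for 9 of 23 genes and none was lower; their median was 0.58, and 7 lay above 0 at equal sums. They were led by the peroxidase genes Gpx4 at 2.79 and Gpx1 at 2.18 and by Gstp2 at 2.22 and Gstp1 at 2.07 in the authors' deposited table. Within the mu class to which Gstm1 belongs, Gstm2 at 2.74 and Gstm3 at 1.79 were higher in the authors' deposited table, and Gstm4 at -0.61, Gstm5 at -0.46 and Gstm7 at -0.83 did not pass. Other peroxidase genes and catalase were higher for 2 of 4, Ptgs1 at 1.99 and Cat at 0.99 in the authors' deposited table. At equal sums 1 of 4, Ptgs1, lay above 0. Of all genes 18.8% were higher and 3.49% lower, and the lists of this paragraph were not matched on level.

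Other contents and membrane proteins of azurophil granules were higher for 13 of 21 measured genes and lower for 1 in the first comparison. Their median was 1.64, and 12 lay above 0 at equal sums. Over all genes 18.8% were higher and 3.49% lower, and the lists given here were not matched on level. In the authors' deposited table Lyz2, lysozyme, stood at 3.54, Lyz1 at 4.60, Cd63, a membrane protein of the granule, at 2.66 and the lysosomal membrane gene Lamp1 at 2.34. Ctsc, whose product trims the granule proteases into active enzymes, differed by 2.35 log2 (adjusted p = 2.0e-08) in the authors' deposited table. This fold change was close to those of Elane and Prtn3, but at another level. In the denominator group Ctsc had 35.7 CPM, against 144 CPM for Elane and 139 CPM for Prtn3. Genes between 5 and 6 log2 CPM in that group, as Ctsc was, had a median log2 fold change of 0.11. The protease gene Prss57, in the same list, went the other way, at -0.58 (adjusted p = 0.136) in the authors' deposited table. Lysozymes, Cd63 and Lamp1 are also made by macrophages. Genes for folding, transport and maturation of granule proteins were higher for 8 of 19 and none was lower. Their median was 0.28, and 6 lay above 0 at equal sums. Srgn and Ctsc, both higher, are counted in this list and in the one before. Calr, calreticulin, a chaperone of myeloperoxidase, stood at 2.08, Hax1 at 2.05, Srgn, the proteoglycan serglycin that packs proteases in granules, at 1.95 and Pdia3 at 1.94 in the authors' deposited table.

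Of 15 transcription factors of granule genes and of the granulocyte and monocyte fates, 3 were higher and 1 was lower in the first comparison. Their median was 0.09. Over all genes 18.8% were higher and 3.49% lower, so this count is near the background, and none of the 15 lay above 0 at equal sums. Cebpb at 0.99 (adjusted p = 0.023), PU.1 under its older symbol Sfpi1 at 0.90 (adjusted p = 0.020) and Fli1 at 0.87 (adjusted p = 0.0061) were higher in the authors' deposited table, while Gfi1, a repressor needed for neutrophil formation, was lower at -0.83 (adjusted p = 0.042). Cebpa, the main C/EBP factor of granulocyte commitment, stood at 0.11 (adjusted p = 0.951), Myb at 0.09 (adjusted p = 0.911) and Cebpe, which drives later granule genes, at -0.67 (adjusted p = 0.112) in the authors' deposited table.

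Other genes of granulocyte-monocyte progenitors included 8 that were higher and 1 that was lower among 20. Their median was 0.47, and 3 lay above 0 at equal sums. The lower gene was Gfi1, which the transcription factor list also holds. Fcgr3, an Fc receptor gene, at 2.08, Plac8 at 1.74, Mgst1 at 1.52 and Clec12a at 1.33 had the smallest p-values in the authors' deposited table. Genes of secondary and tertiary granules and S100 proteins follow the primary granules in maturation. Of 14 genes listed for them, 8 were higher and 1 was lower, with a median of 1.87. The lower one was Ltb4r1, a receptor gene, at -0.89 (adjusted p = 0.046) in the authors' deposited table. In that list S100a8 stood at 2.29, S100a9 at 2.51, Chi3l3 at 2.12 and Retnlg at 4.32 in the authors' deposited table. At equal sums 9 of the 14 lay above 0. The shares over all genes were 18.8% higher and 3.49% lower, and neither the progenitor nor the late granule list was matched on level.

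**Figure D5:**
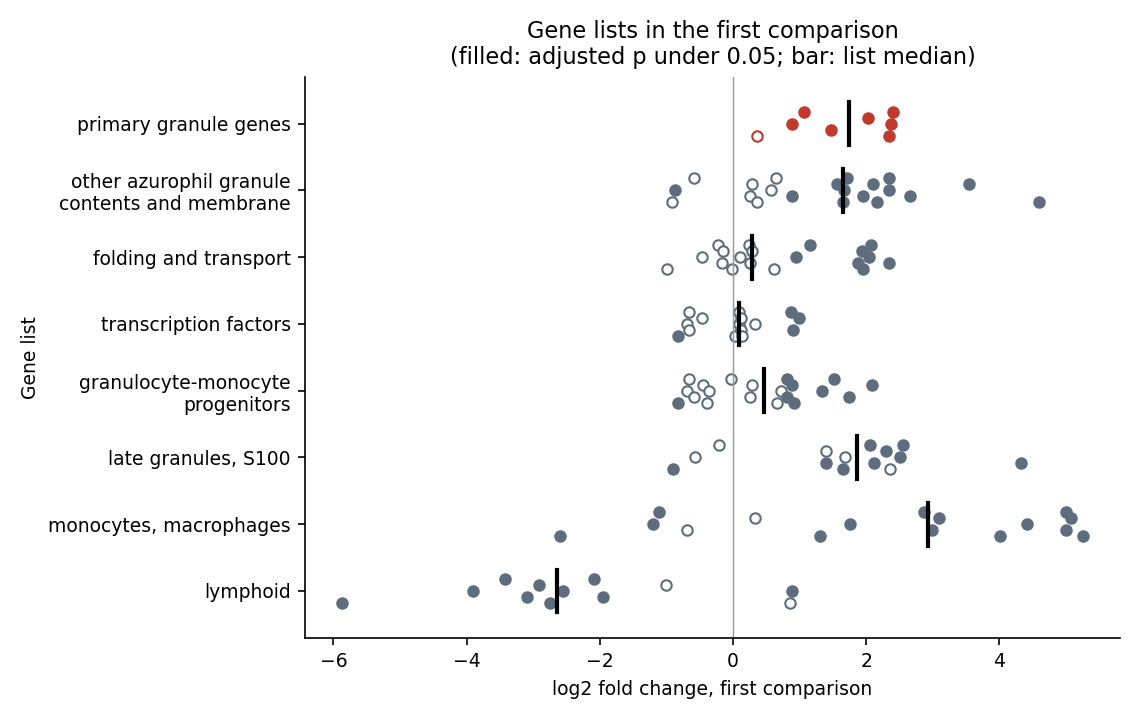
Log2 fold change in the first comparison (horizontal axis, deposited scale) of the measured genes of 8 lists (rows), with filled points for an adjusted p under 0.05, open points for the rest and a bar at the list median. The primary granule genes have a median of 1.75 and the transcription factors one of 0.09, and at equal sums all points would lie 1.49 lower.

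Markers of other cell types moved in the same comparison, and their part in the results for the granule genes was not tested. Over all genes 18.8% were higher and 3.49% lower, and the marker lists were not matched on level. Markers of monocytes and macrophages were higher for 11 of 16 and lower for 3, and their summed level was 4076 CPM in the first numerator group and 469 CPM in the second numerator group, against 523 CPM in the denominator group. The complement genes C1qa, C1qb and C1qc, the last at 5.07, and the mannose receptor gene Mrc1 at 5.25 led them in the authors' deposited table. The 3 lower genes are chosen here after their values were seen, the chemokine receptor genes Cx3cr1 at -2.59 and Ccr2 at -1.20 and the factor XIII gene F13a1 at -1.10 in the authors' deposited table, which mark monocytes, so the list did not move one way. Erythroid and megakaryocyte markers included 9 higher and 2 lower genes among 14, with sums of 18295 CPM in the first numerator group and 1669 CPM in the second numerator group, against 1693 CPM in the denominator group. They were led by Pf4 at 3.43, Hba-a1 at 3.97, Gp1bb at 3.63 and Itga2b at 2.90 in the authors' deposited table. Lymphoid markers were lower for 9 of 12 and higher for 1. Their sums were 402 CPM in the first numerator group and 545 CPM in the second numerator group, against 625 CPM in the denominator group. Nkg7, the higher gene, gave 202 CPM of the first sum, 114 CPM of the second and 110 CPM of the last. It is also counted among azurophil granule contents and among progenitor genes. The lower ones included Dntt at -2.92, Igll1 at -2.75 and Vpreb3 at -1.95 in the authors' deposited table. Markers of eosinophils, basophils and mast cells included 4 higher and 4 lower genes among 14, with a median of -0.68 and sums of 1870.0 CPM in the first numerator group and 699.6 CPM in the second numerator group, against 697 CPM in the denominator group. At equal sums 10 of the monocyte and macrophage, 8 of the erythroid and megakaryocyte, 3 of the eosinophil, basophil and mast cell and none of the lymphoid markers lay above 0. Of the eosinophil genes, Ccr3 at 5.75, Ear2 at 3.71, Ear1 at 1.86 and Prg2 at 1.44 were higher in the authors' deposited table and Siglec5, an older symbol of Siglecf, was lower at -1.60. Epx at -0.39, Prg3 at -0.71 and Il5ra at -1.23 in the authors' deposited table were not called. The lower genes of basophils and mast cells were Ms4a2, Cpa3 and Fcer1a, the last at -1.64 in the authors' deposited table. A level derived from log values cannot be 0, and the lowest marker of these 4 lists was Klrd1, of natural killer cells, at 0.155 CPM in the first numerator group.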

How the data were processed

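Libraries were made from 0.1 ug of total RNA with the TruSeq kit, per the labels' protocols, and the 10 libraries were grouped by their titles. Bowtie 0.12.2 and the build mm8 appear in the submitters' processing notes, without a role. Not given in the sources used here are the counting and testing programs, the annotation and any division of CPM by gene length. Per the file headers, the authors' table gives a log fold change, a log CPM mean, the p-value and its FDR per gene for each of 2 comparisons. The deposited fold changes and CPM means were read as log2, because the derived denominator levels of both comparisons then lie closest, with a median difference of 0.00203 log2, against 0.0101 if read as natural logs. The deposited adjusted p equals a Benjamini-Hochberg adjustment over all 12791 genes (largest difference 5.2e-14).

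Group levels were derived with weights of 0.48 (first) and 0.59 (second) for the numerator group, chosen on a grid of 0.01 so that the denominator levels match best, and the step was checked on simulated data. Levels are not compared between genes as amounts, since scaling by length is unknown. No test was made here, since the table has no value per library, and 0 columns of single samples were left aside. Genes of like level lay within 0.5 log2 in the denominator group. Transcript lengths matched 11509 names (90.0%). Words of 50 bases were compared over GENCODE M21 transcripts, and sequences come from the RefSeq table of GRCm38.p6. Python 3.11.15, pandas 2.3.3, numpy 2.4.6, scipy 1.17.1 and matplotlib 3.10.9 were used.

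The 8 genes and the 15 lists were chosen with earlier results of these data known, and 6 listed genes were matched through an older symbol. Some genes stand in several lists, so the lists are not independent of each other. Named were the 8 genes, Kdr, Kit and Ly6a, up to 4 genes per list with the smallest p among those past an adjusted p of 0.05, 10 genes nearest in mean level and 10 nearest in pattern. Some genes that this rule names are not reported here. Family members, neighbours, Ctsc, Cebpa, Cebpe, Myb and further eosinophil and monocyte markers were chosen after their values were seen. Alternatives were other thresholds, filters, windows and scalings.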

Additional observations from a re-analysis of the deposited data

How the results depend on the processing

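At equal summed levels of both groups, a setting chosen after seeing the data, 4 members (Mpo, Elane, Prtn3, Ctsg) instead of 7 kept a positive sign among those called in the first comparison, and 5 did with small RNA, ribosomal protein, histone and globin genes left out of the sums. The reversed log2 fold changes were Ms4a3 at -0.42 (-0.23 with those genes left out), Serpinb1a at -0.61 (-0.41), Fcnb at -1.13 (-0.93) and Gstm1 at -0.023. The cause of the unequal sums was not tested. With a window of 1 log2 for like level, 8 members instead of 5 lay above the median of their like-level genes in the first comparison. With a window of 0.25 log2 the number stayed at 5. Over all genes, 2847 were called in the first comparison and 1308 under Bonferroni adjustment, because that threshold is stricter. The members called in the first comparison numbered from 5 to 7 under the other alternatives, which were stricter thresholds, a minimum fold, a minimum level and subtraction of the median. None was called in the second comparison under any alternative run. The listed genes called higher in the first comparison numbered 83, and 82 with a mean of at least 3 log2 CPM. The match on transcript length was also chosen after seeing the data. No paired analysis was possible because the table holds no value per library, and for the same reason leaving out each library was not run. With no depth per library, no floor or interval can be given.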

Other observations

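The genes of the sort were measured too. Kdr was near the lower end of the table, with derived levels of 2.24 CPM in the first numerator group and 0.378 CPM in the second numerator group, against 0.938 CPM in the denominator group. Its log2 fold change in the authors' deposited table was 1.26 in the first comparison (adjusted p = 0.617). In the second it was -1.11, and neither was called. Ly6a, the Sca-1 gene, had 37.2 CPM in the first numerator group and 27.2 CPM in the second numerator group, against 27.6 CPM in the denominator group. In the first comparison of the authors' deposited table Kit stood at -0.60 (adjusted p = 0.128) and Ly6a at 0.43 (adjusted p = 0.402), so neither was called.

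Of the listed genes, 2 were called in the second comparison, and both were lower. Fcna is described above. C1qa, a complement gene of macrophages, had 678 CPM in the first numerator group and 3.89 CPM in the second numerator group, against 21.2 CPM in the denominator group, and its log2 fold change in the second comparison of the authors' deposited table was -2.41. No gene of primary or later granules was called there.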
